A study of Saccharomyces cerevisiae with 4 samples.

Results

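HSP60, HSP10, HSP78, MDJ1, ECM10, ZIM17, PIM1, YME1, PHB1 and PHB2 are nuclear genes for folding and quality control of proteins inside the mitochondrion of budding yeast. They were taken by name, and all 10 were found among the 5897 genes of the expression table. The table describes polyadenylated RNA of the industrial Saccharomyces cerevisiae strain CY, which the labels describe no further, after 10 h of shaken growth in peptone, yeast extract and glucose. The non-stress group held 2 libraries grown at 30 °C with 2% glucose, and the stress group held 2 libraries grown at 36 °C with 10% glucose. Heat and sugar were raised together, so their effects cannot be told apart. Nothing in the labels says that libraries of a group came from separate cultures, so the p-values measure the spread between these libraries, which may be technical. The spread used for each gene was in part borrowed from other genes of similar level.

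Most mitochondrial proteins are made in the cytosol and enter the organelle unfolded. Inside, the mitochondrial Hsp70 pulls them in and hands many of them to a barrel-shaped chaperonin, in which they fold. Proteins that fail to fold, or that lack their partners, are pulled out of aggregates or degraded by ATP-dependent proteases of the matrix and the inner membrane, and ring-shaped prohibitin complexes surround some of these proteases in the membrane.

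All 10 genes were higher in the stress libraries, by 2.26-fold (YME1) to 4.66-fold (HSP60). Expression is given as FPKM, fragments per kilobase of transcript and per unit of sequencing depth, so that levels of different genes can be compared. The log2 fold changes, on the log2(FPKM + 1) scale, ran from 1.17 ± 0.076 to 2.21 ± 0.057 (SE) with a median of 1.68, against a median of -0.14 over the 5784 genes tested. Of these 10 genes, 10 passed a limma adjusted p threshold of 0.05 as higher, where 39.8% of all genes tested did so and 47.9% passed as lower. A log2 fold change of at least 1 was also reached by 10 of 10, against 19.0% of all genes tested. Both stress libraries lay above both non-stress libraries for 10 of 10, against 42.5% of all genes tested. Mitochondrial genes as a class were mostly higher too: of 832 other tested genes annotated to the mitochondrion in the deposited table, 71.5% passed as higher and 23.0% as lower, with a median of 1.03. Matrix and inner membrane genes were taken by their own annotation terms, whether or not they also carried the mitochondrion term. Of 216 other matrix genes, 87.0% passed as higher, with a median of 1.77. Of 245 other inner membrane genes, 80.0% did, with a median of 1.48. The median of the 10 genes was thus above that of the other genes annotated to the mitochondrion and close to that of the matrix genes.

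Summed over the 10 genes, FPKM was 1325 and 1305 in the non-stress libraries and 4973 and 4857 in the stress libraries. Their part of all FPKM was 0.134% and 0.129% against 0.470% and 0.456%. HSP60 and HSP10 alone supplied 0.0615% and 0.0602% against 0.253% and 0.245%, and the other 8 genes together 0.0725% and 0.0690% against 0.217% and 0.211%. FPKM is a share of a library and not an amount per cell. Cytosolic ribosomal protein genes held 22.5% and 23.7% of it in non-stress and 1.54% and 1.57% in stress libraries. With libraries rescaled on all other genes, which moved the median of all genes by -0.43, the 10 log2 fold changes ran from 0.73 to 1.77 and all 10 still passed as higher, where 27.8% of all genes did and 61.8% passed as lower.

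**Figure D1:**
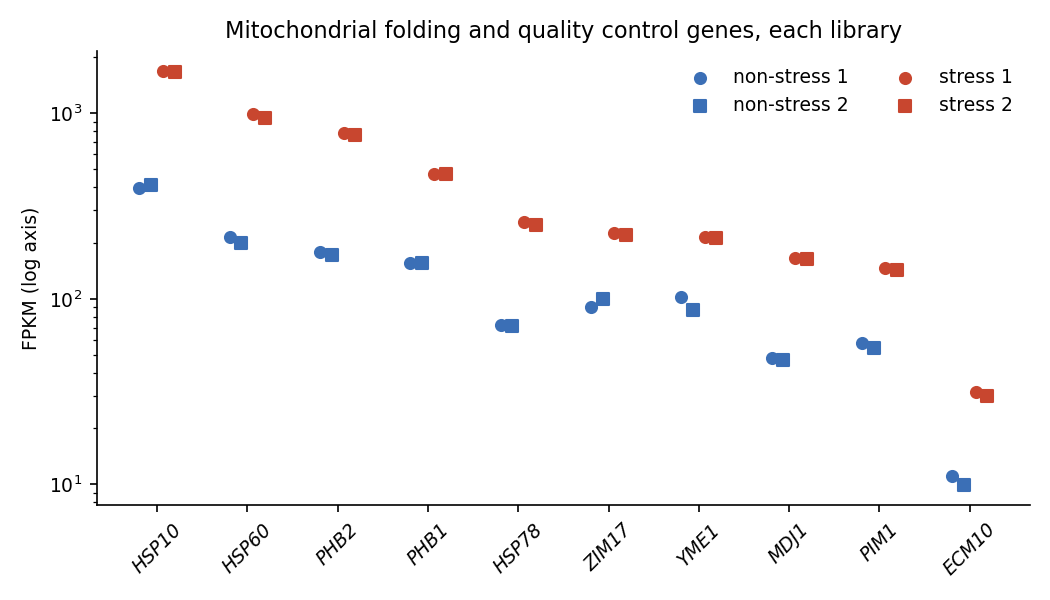
FPKM on a log axis of each of the 10 genes in each library, ordered by the mean in stress; circles and squares mark replicates 1 and 2. Every red stress point lies above both blue non-stress points of its gene, and levels span from 9.95 FPKM for ECM10 without stress to 1680.1 for HSP10 under stress.

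The chaperonin subunits were the most abundant of the 10 transcripts under stress. HSP60 encodes the barrel of the chaperonin, and HSP10 its lid. HSP60 (YLR259C; R64 chromosome XII, 663284 to 665002, minus strand) is a single coding exon for a protein of 572 residues. Its level was 215 and 199.9 FPKM in the non-stress libraries and 992 and 942 in the stress libraries, so that the lowest stress value was 4.37 times the highest non-stress value. The difference was 4.66-fold (log2 fold change 2.21 ± 0.057, SE; limma adjusted p = 5.12e-10), and 6.71% of all genes tested rose by more on the log2 scale. HSP10 (YOR020C; chromosome XV, 370524 to 370844, minus strand) is much shorter, with 106 residues. It stood at 393 and 408 FPKM without stress and at 1680.1 and 1665 with stress, a 4.18-fold rise (log2 fold change 2.06 ± 0.049, SE; limma adjusted p = 3.34e-10). By mean FPKM, HSP60 went from rank 823 to rank 194 of all genes in the table, and HSP10 from rank 412 to rank 114.

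Lid and barrel transcripts kept a similar proportion. The ratio of HSP10 to HSP60 FPKM within a library was 1.83 and 2.04 in non-stress and 1.69 and 1.77 in stress libraries. These ratios did not overlap between groups, but the gap was smaller than the difference between the non-stress libraries. Ratios between genes are given as descriptions and were not tested; with 2 libraries against 2, an exact permutation test cannot give a two-sided p below 0.33.

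The windows upstream of HSP60, HSP10 and HSP78 hold heat shock elements. They are shown here because they hold these elements, and not for the size of the rise. In budding yeast the heat shock factor Hsf1 binds neighbouring inverted copies of the unit GAA. The 300 bases before the start codon were searched in the R64 genome for TTCNNGAA and for GAANNTTC, each of which reads the same on both strands, and a pair of these that shares its middle unit gives 3 units in a row. Capitals mark the elements, and sequences are written 5′ to 3′ on the strand of the gene, from chrXII:665180-665232, chrXV:370972-371024 and chrIV:974453-974510, all on the minus strand.
HSP60: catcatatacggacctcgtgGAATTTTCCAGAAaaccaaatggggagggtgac
HSP10: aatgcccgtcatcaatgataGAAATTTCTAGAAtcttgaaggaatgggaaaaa
HSP78: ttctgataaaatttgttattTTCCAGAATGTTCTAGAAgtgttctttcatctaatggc

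Of the 10 windows, 3 held such a run of 3 units, those of HSP60, HSP10 and HSP78, against 0.9% of the windows of 5893 genes. Either element was present in 4 of the 10, with PHB1 as the fourth, and in 22.5% of all windows. Among the cytosolic relatives described below, HSP104, SSA1 and SSA2 also had such a run. HSP104 and SSA1 rose, while SSA2 passed as lower, with reads that cannot be divided with certainty between SSA1 and SSA2. PHB2, which rose 4.40-fold, had neither element in this window. These matches describe letters in a window and were not tested for binding.

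HSP78, the matrix disaggregase of the Hsp100 family, pulls proteins out of aggregates together with the mitochondrial Hsp70. The gene (YDR258C; chromosome IV, 971808 to 974243, minus strand) had 72.5 and 71.6 FPKM without stress and 260.0 and 250.1 with stress. It rose 3.54-fold (log2 fold change 1.81 ± 0.052, SE; limma adjusted p = 1.13e-09). Replicates differed by far less than the groups. HSP104, the Hsp100 disaggregase of the cytosol and nucleus, rose 3.01-fold, and the ratio of HSP104 to HSP78 FPKM was 3.82 and 3.54 without stress and 3.11 and 3.14 with stress. Both relatives thus moved the same way, with the cytosolic gene at the higher level in every library.

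The HSP78 window also held 3 copies of the stress response element, AGGGG or its complement CCCCT, through which the transcription factors Msn2 and Msn4 act. They are marked in capitals in the stretch at chrIV:974349-974459, minus strand, which begins just downstream of the heat shock elements printed above.
HSP78: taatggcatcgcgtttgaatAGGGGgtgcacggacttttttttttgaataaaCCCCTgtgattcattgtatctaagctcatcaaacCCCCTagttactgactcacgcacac
At least 1 such element occurred in 4 of the 10 windows (HSP78, ECM10, ZIM17 and PHB2) and in 22.4% of all windows. The CCAAT box, CCAAT or its complement ATTGG, was searched in the same way. It occurred in 4 of the 10 windows and in 42.1% of all windows.

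MDJ1, ECM10 and ZIM17 belong to the Hsp70 system of the matrix. MDJ1 encodes a J-domain protein that stimulates the ATPase of mitochondrial Hsp70 during folding. The gene (YFL016C; chromosome VI, 104701 to 106236, minus strand) had 48.0 and 46.9 FPKM without stress and 165 and 163 with stress, a 3.46-fold rise (log2 fold change 1.77 ± 0.054, SE; limma adjusted p = 1.66e-09). MDJ1 and HSP78 moved in parallel: the ratio of HSP78 to MDJ1 FPKM was 1.51 and 1.53 in non-stress libraries and 1.57 and 1.53 in stress libraries. YDJ1, a J-domain protein of the cytosol, went the other way, from 305 and 315 FPKM to 24.4 and 28.8, which was 11.7-fold lower (log2 fold change -3.50 ± 0.078, SE; limma adjusted p = 2.11e-10). Without stress YDJ1 stood far above MDJ1, and with stress it stood far below.

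ZIM17 encodes a small zinc finger protein that keeps the mitochondrial Hsp70 soluble. The gene (YNL310C; chromosome XIV, 51907 to 52431, minus strand) had 89.9 and 100.2 FPKM without stress and 227 and 221 with stress. Its 2.36-fold rise was among the smaller ones of the set (log2 fold change 1.23 ± 0.063, SE; limma adjusted p = 7.06e-08).

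ECM10 encodes a minor matrix Hsp70 that is a close relative of the main one, SSC1. It lies on chromosome V (YEL030W; 94644 to 96578, plus strand). ECM10 was the least abundant of the 10, at 11.0 and 9.95 FPKM without stress and 31.5 and 29.8 with stress. An estimated 350 to 390 fragments per non-stress library stand behind these values, the fewest of the set. The rise was 2.92-fold (log2 fold change 1.46 ± 0.090, SE; limma adjusted p = 2.64e-07), with the largest SE of the 10. SSC1 was at 264 and 248 FPKM without stress and at 1276 and 1263 with stress, a 4.95-fold rise (log2 fold change 2.30 ± 0.052, SE; limma adjusted p = 2.18e-10). SSC1 FPKM was 24.0 and 25.0 times that of ECM10 without stress and 40.5 and 42.4 times with stress.

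ECM10 and SSC1 are similar enough that shared reads could matter, so their coding sequences were compared. They are identical at 75.3% of 1935 aligned bases, and the longest identical run is 26 bases. None of the 50-base windows of ECM10, or of the other 9 genes, occurs in another coding sequence of the R64 annotation. Below are 60 bases from the middle of both coding sequences, in which capitals mark the 22 positions that differ. ECM10 is taken from chrV:95587-95646 on the plus strand and SSC1 from chrX:520591-520650 on the minus strand.
ECM10: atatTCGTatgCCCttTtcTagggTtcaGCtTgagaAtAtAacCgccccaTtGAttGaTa
SSC1: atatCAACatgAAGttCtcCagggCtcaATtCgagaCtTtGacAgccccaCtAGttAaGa

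The nucleotide exchange factor of the same Hsp70 cycle, MGE1, did not rise with its partners. Its level was 307 and 301 FPKM without stress and 273 and 285 with stress (log2 fold change -0.13 ± 0.050, SE; limma adjusted p = 0.0401), and this call as lower was lost after leaving out non-stress replicate 1 (adjusted p = 0.0699) or either stress library (0.276 without replicate 1 and 0.0801 without replicate 2). Its size depended on scaling, with 0.06 and no call under median centring and calls as lower under quantile normalization (-0.36), equal FPKM sums (-0.21) and rescaling without ribosomal protein genes (-0.57). The ratio of SSC1 to MGE1 FPKM, a pair chosen after its values were seen, was 0.862 and 0.826 without stress and 4.68 and 4.44 with stress. In 2 more pairs chosen after their values were seen, the fold change of SSC1 was also larger than those of the co-chaperones of the set. Its FPKM was 5.51 and 5.30 times that of MDJ1 without stress and 7.72 and 7.73 times with stress, and 2.94 and 2.48 times that of ZIM17 against 5.61 and 5.72 times.

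**Figure D2:**
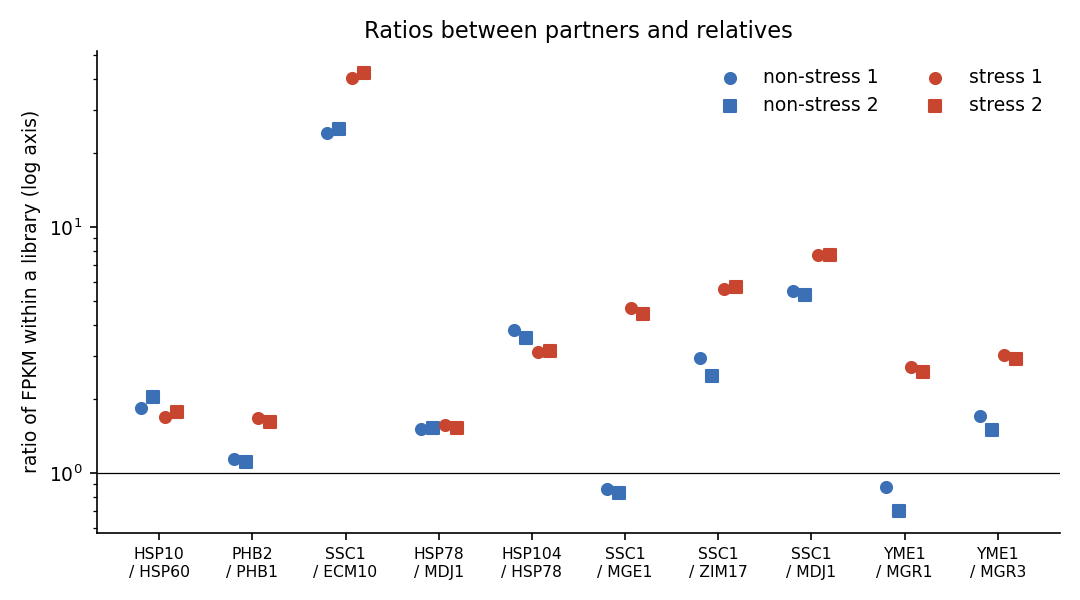
Ratio of the FPKM of the upper gene to that of the lower gene in each library, on a log axis; circles and squares mark replicates 1 and 2. The ratios of HSP10 to HSP60 and of HSP78 to MDJ1 lie close together in all 4 libraries, while SSC1 to MGE1 and YME1 to MGR1 lie below 1 without stress and above 1 with stress.

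Of the 2 proteases in the set, PIM1 encodes the Lon protease of the matrix, which degrades misfolded and oxidised soluble proteins. The gene (YBL022C; chromosome II, 177874 to 181275, minus strand) is the longest of the 10. It had 57.5 and 54.4 FPKM without stress and 146 and 143 with stress, 2.59-fold higher (log2 fold change 1.36 ± 0.057, SE; limma adjusted p = 1.58e-08). YME1 encodes the inner membrane AAA protease that faces the intermembrane space. Located on chromosome XVI (YPR024W; 610481 to 612724, plus strand), it had 102 and 86.9 FPKM without stress and 215 and 213 with stress. Relative to their mean, its non-stress libraries differed more than those of the other 9 genes, and its 2.26-fold rise was the smallest (log2 fold change 1.17 ± 0.076, SE; limma adjusted p = 3.73e-07). The lowest stress value of YME1 was still 2.08 times its highest non-stress value.

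PIM1 was the one gene of the 10 whose window held the proteasome-associated control element, GGTGGCAAA or its complement TTTGCCACC, bound by the proteasome gene activator Rpn4. It is shown in capitals in the stretch at chrII:181446-181494, minus strand.
PIM1: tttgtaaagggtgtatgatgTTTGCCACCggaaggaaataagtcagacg
This element occurred in 72 of 5893 windows (1.2%). Among the related genes described below, PRD1 and CCT6 also had it, both named after their values were seen. PRD1 passed as higher (log2 fold change 0.90) and CCT6 as lower (-1.07).

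Adaptors of Yme1 did not follow their protease. MGR1 fell from 117 and 124 FPKM to 79.2 and 82.7 (log2 fold change -0.57 ± 0.057, SE; limma adjusted p = 1.08e-05), and the ratio of YME1 to MGR1 FPKM, chosen after its values were seen, was 0.874 and 0.702 without stress and 2.71 and 2.58 with stress. MGR3, also named after its values were seen, was at 60.3 and 58.2 FPKM without stress and 71.0 and 73.2 with stress. Its small rise (log2 fold change 0.28 ± 0.059, SE; limma adjusted p = 0.00156) changed sign, to -0.16, once libraries were rescaled without ribosomal protein genes.

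PHB1 and PHB2 encode prohibitins, which alternate in large rings in the inner membrane and hold the m-AAA protease. Both genes lie on chromosome VII on the minus strand, PHB1 (YGR132C) at 755589 to 756452 and PHB2 (YGR231C) at 952548 to 953480. PHB1 was at 157 and 155 FPKM without stress and at 471 and 469.5 with stress, a 3.02-fold rise (log2 fold change 1.59 ± 0.047, SE; limma adjusted p = 1.46e-09). PHB2 was at 179 and 172 FPKM without stress and at 785 and 760.3 with stress, a 4.40-fold rise (log2 fold change 2.13 ± 0.050, SE; limma adjusted p = 2.99e-10). The pair began close to each other and moved apart: PHB2 FPKM was 1.14 and 1.11 times that of PHB1 without stress and 1.67 and 1.62 times with stress.

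The other genes of mitochondrial quality control were more varied than the 10. This may follow from the choice, since the 10 and these lists were chosen with earlier results of these data known. Of 8 further chaperones and co-chaperones, 6 passed as higher (75.0%) and 2 as lower. The share higher was 71.5% of the other genes annotated to the mitochondrion and 39.8% of all genes tested, and the share lower was 23.0% and 47.9%. The median log2 fold change of these 8 was 0.98. Rescaled without ribosomal protein genes, 4 of the 8 passed as higher, where 27.8% of all genes tested did. SSQ1 (0.13) and MDJ2 (0.18), named after their values were seen, did not pass under that scaling. CPR3, a mitochondrial cyclophilin that speeds folding at proline residues, rose 5.39-fold, from 319 and 356 FPKM to 1824 and 1814 (log2 fold change 2.43 ± 0.061, SE; limma adjusted p = 4.57e-10). TCM62, a chaperone-like protein related to the chaperonin and needed to assemble succinate dehydrogenase, rose 4.83-fold, from 27.7 and 24.5 FPKM to 122 and 130.1. MCX1, the mitochondrial relative of the bacterial unfoldase ClpX, fell from 48.1 and 46.4 FPKM to 30.4 and 30.6. MCX1 and MGE1 were thus the 2 that fell, and MGE1 only with the limits given above.

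Among 16 other proteases, peptidases and protease partners, 14 rose, 1 fell and 1 did not pass. The share higher was 87.5%, against 71.5% of the other genes annotated to the mitochondrion and 39.8% of all genes tested. The median log2 fold change of this list was 0.77. YTA12, a subunit of the m-AAA protease of the inner membrane, rose 3.49-fold, from 86.0 and 75.6 FPKM to 279 and 285. AFG3, the other subunit of that protease, named after its values were seen, rose 1.73-fold, from 68.6 and 74.5 FPKM to 123 and 124. PCP1, the rhomboid protease of the inner membrane, rose 3.16-fold, and IMP2, a subunit of the inner membrane peptidase, rose 2.68-fold. MGR1 was the one that fell, and ICP55, an aminopeptidase that trims imported proteins, did not pass (log2 fold change -0.02; limma adjusted p = 0.732). The direction of the smallest changes in this list depended on scaling. Rescaled without ribosomal protein genes, 10 passed as higher and 4 as lower, where 27.8% of all genes tested passed as higher and 61.8% as lower. The 4 were MGR1, ICP55 (-0.46, limma adjusted p = 8.87e-05), SOM1 (-0.23) and MGR3 (-0.16). OMA1 was at -0.06 under that scaling and did not pass. ICP55 passed as higher under median centring (0.17; limma adjusted p = 0.029), so it was called in either direction according to the scaling. The call of SOM1 as higher was also lost without stress replicate 1 (limma adjusted p = 0.0761) or stress replicate 2 (0.0566) and with equal FPKM sums (0.112). OMA1 and SOM1 are named after their values were seen.

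**Figure D3:**
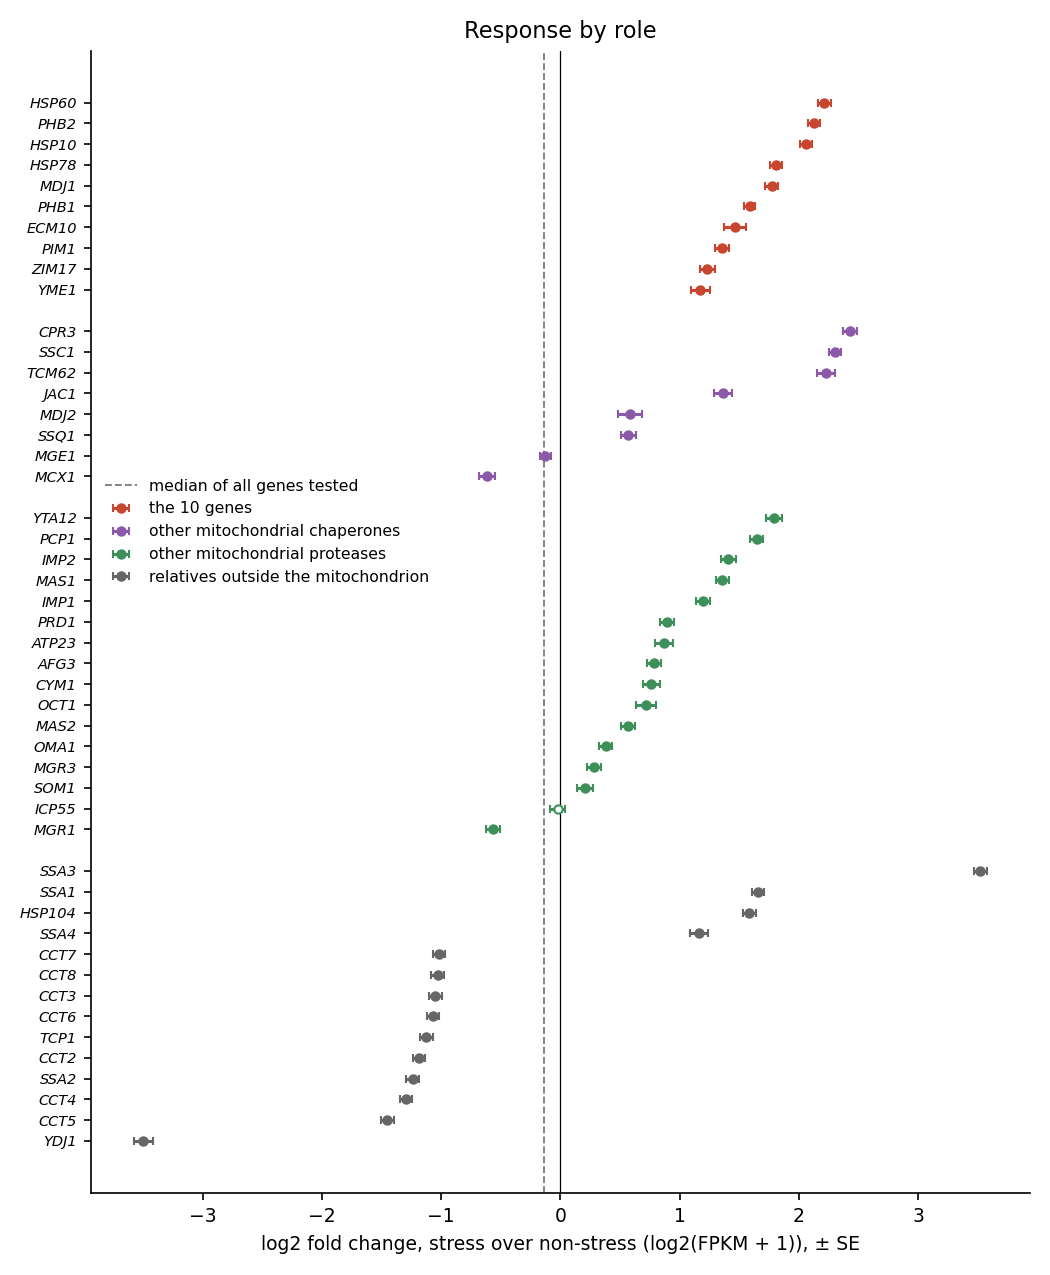
Log2 fold change of stress over non-stress on the log2(FPKM + 1) scale, with SE, for the 10 genes and for 3 lists of related genes; filled points passed a limma adjusted p of 0.05, and the dashed line is the median of all genes tested (-0.14). The 10 genes lie between 1.17 and 2.21, while the CCT subunits lie between -1.45 and -1.02.

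Cytosolic relatives were listed only for HSP60, HSP78, MDJ1 and ECM10, and they moved in both directions. Of the cytosolic chaperonin CCT, the counterpart of HSP60, all 8 subunits passed as lower, by log2 fold changes between -1.45 and -1.02. CCT5 went from 208 and 205 FPKM to 74.0 and 75.7, and CCT4 from 189.8 and 188 to 77.0 and 75.4. Without stress the levels of HSP60 and CCT5 were about equal, and with stress HSP60 stood far above. Of 4 cytosolic Hsp70 genes, the stress-induced SSA3 rose 11.8-fold, from 38.5 and 36.8 FPKM to 458 and 428, and SSA1 rose 3.16-fold. SSA2, named after its values were seen, was 2.37-fold lower, at 297 and 319 FPKM against 130.3 and 129, but 58.2% of its 50-base windows also occur elsewhere, mainly in SSA1, so the division of reads between these 2 genes is uncertain. Over the 14 relatives, 4 rose (28.6%) and 10 fell (71.4%), where 39.8% of all genes tested passed as higher and 47.9% as lower.

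**Figure D4:**
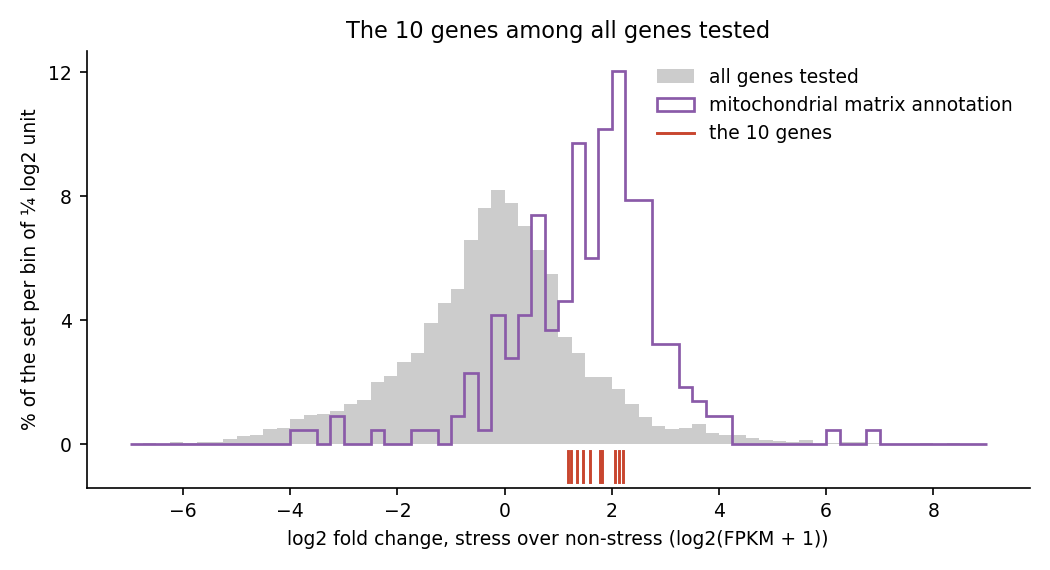
Distribution of log2 fold changes as a percentage of each set in bins of equal width, in grey for all 5784 genes tested and in outline for 216 other genes annotated to the mitochondrial matrix; red ticks below the axis are the 10 genes. The ticks lie to the right of the bulk of all genes and within the main part of the matrix genes, whose median is 1.77.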

How the data were processed

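Per the file headers, the values that the authors deposited are FPKM, 1 column for each library in a single table. HISAT2 2.1.0, Bowtie2 2.2.5 and RSEM 1.2.8 appear in the submitters' processing notes beside the build R64, with no role or order; read filters are not given in the sources used here. Transcript lengths in the table are coding lengths (98.8% are multiples of 3). Gene identifiers were used to look up the R64 reference, which gave identical coordinates for the genes described here. Of the symbols, 2 were stored as dates and were restored by identifier, one of them OCT1.

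Stress and non-stress libraries were compared with limma 3.58.1 in R 4.3.3 (linear model, empirical Bayes with a trend) on log2(FPKM + 1). Each gene had 2 residual degrees of freedom of its own, beside 6.51 prior degrees of freedom borrowed from all genes. A gene was tested if 2 or more libraries had an FPKM of at least 1, and p-values are two-sided, Benjamini-Hochberg adjusted over 5784 genes, with a threshold of 0.05. Log2 fold changes on this scale understate the change of low genes; folds given without log2 divide mean FPKM of the groups. Only the limma fit was tried on simulated data, with equally many rises and falls. That trial lacked the wide shift between these groups, so it cannot show how the fit handles such a shift.

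Steps between low FPKM values gave estimated depths of 18000000 to 18600000 fragments; between 86.2% and 91.0% of low values lay within 0.1 of a whole number of reads. Estimated fragments carry this uncertainty, and no count test was run. Python 3.11.15, pandas 2.3.3, numpy 2.4.6, matplotlib 3.10.9 and MAFFT 7.526 were used for tables, figures and the alignment. The 10 genes, the 3 lists of related genes and the tests were chosen with earlier results of these data known. From each list the 3 largest rises, the 3 largest falls and every gene that did not pass were to be named; others are marked as chosen after their values were seen. The alternatives tried were 4 scalings, 2 filters, another pseudocount, a replicate block, each library left out and a threshold of 0.01.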

Additional observations from a re-analysis of the deposited data

How the results depend on the processing

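All 10 genes were called higher under each alternative that kept all libraries. Of all genes tested, between 27.8% and 46.5% were called higher under these alternatives. The largest limma adjusted p-value of the 10 lay between 4.13e-09 and 0.000269, apart from the replicate block, where it was 3.25e-24. The block leaves less of each gene's own spread to draw on, so its smaller value is not stronger evidence. The median of all genes, -0.14 as deposited, moved by 0.23 under quantile normalization, by 0.19 under median centring, by -0.08 with equal FPKM sums and by -0.43 with sums equalised without ribosomal protein genes, while the median of the 10 genes, 1.68 as deposited, was 1.80, 1.87, 1.59 and 1.24 under these scalings. With 1 library left out, single log2 fold changes of the 10 genes ran from 1.06 to 2.27. In the other lists the total called in either direction stayed within 1.5 times. Rescaled without ribosomal protein genes, proteases called lower went from 1 to 4, while all genes called lower went from 47.9% to 61.8%. Chaperones called higher went from 6 to 4 there, while all genes called higher went from 39.8% to 27.8%. Chaperones called lower went from 2 to 1 under median centring (42.3% of all genes) and at a threshold of 0.01 (45.1%). The call lost was that of MGE1, whose log2 fold change ran from -0.16 to -0.09 with 1 library left out. No relative outside the mitochondrion changed call or direction. The sign changed for ICP55 (0.12 under quantile normalization, 0.17 and called higher under median centring, and between -0.07 and 0.02 with 1 library left out, beside -0.46 and called lower when rescaled without ribosomal protein genes), for MGE1 (0.06 under median centring), and, rescaled without ribosomal protein genes, for MGR3 (-0.16), OMA1 (-0.06) and SOM1 (-0.23). SSQ1, MDJ2 and MAS2, named after their values were seen, lost their calls under that scaling. The cause was not tested.

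With the replicate number as a replicate block, 10 of the 10 genes and 5073 of all genes were called, against 5071 without it. Of all genes tested, 39.7% were called higher and 48.0% lower with the block. The deviations of replicate 1 from its group mean had a correlation of -0.005 between the groups across 5784 genes, and the labels do not say that a number marks a shared culture. Ratios of FPKM between genes within a library do not change when the whole library is multiplied by a single factor. Quantile normalization is not such a scaling and can change them. The log2 fold changes of SSC1 and ECM10 were 2.30 and 1.46 as deposited, and 2.25 and 1.89 under quantile normalization. With 2 libraries per group the spread is poorly known, and ECM10 had the fewest fragments.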
